A study of Mus musculus with 31 samples.

Results

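The genes described here are 8 mouse genes of the Myc and Ras oncogene families, chosen by name, with earlier results of these data known. Myc, Mycn and Mycl encode the transcription factors c-Myc, N-Myc and L-Myc. Max encodes the partner that each of them needs to bind DNA, and Mxd1 encodes a repressor that competes with Myc for Max. Hras, Nras and Rras2 encode small GTPases of the Ras family. These are 8 of the 46072 genes in the deposited tables. They are of interest because the RM9 line was made with ras and myc, whereas MC38 is a line from a carcinogen-induced colon tumor.

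RNA was taken from subcutaneous tumors in the right hind leg of male C57BL/6J mice, recorded as WT. The 15 RM9 tumors, a mouse prostate cancer model, comprised 4 untreated controls, 4 tumors at 3 h after radiation therapy (RT), 4 at 12 h and 3 at 24 h. The 16 MC38 tumors, a mouse colon cancer model, comprised 4 in each of the same groups. Every tumor was grown from injected cells to about 8 mm in diameter, RT was a single dose of 15 Gy, and the untreated tumors carry the 3 h label, so that 1 control group serves all 3 times. Each library is 1 mouse and each model is 1 cell line.

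Values are TPM, the transcripts of a gene as a share of all transcripts, scaled for length and with a fixed sum per library. The libraries held 21.4 to 29.4 M reads, as computed from the deposited coverage and FPKM. The mitochondrially encoded genes took 47.3 to 57.2% of TPM in RM9 and 22.5 to 40.6% in MC38, which leaves less of the total for all other genes in RM9. Most of this came from a single gene in RM9, as mt-Nd4l alone took 35.6 to 43.5% of TPM there and 12.9 to 29.6% in MC38. Across all genes, the median log2 difference between RM9 and MC38 control tumors was −0.63, and comparisons between models are therefore also given on 3 other scales. These are TPM rescaled without the mitochondrial genes, TPM after median-ratio scaling, and RPM per kilobase, the reads of a gene divided by its length and by library depth, computed from the deposited coverage. A gene is called where the adjusted p (limma, Benjamini-Hochberg over all genes tested) is under 0.05. Shares of all genes called are given for TPM as deposited and do not apply to counts on the other 3 scales. Summed TPM of 7 epithelial markers was 669.6 to 1526 in RM9 and 0.649 to 2.04 in MC38, where all 7 were under 1 TPM in every library. In RM9 the medians of Krt8, Krt18 and Krt19 were 767, 238 and 103 TPM. Epcam had a median of 1.15 TPM there, and Cdh1, Cldn4 and Cldn7 were under 1 TPM in every RM9 library. Of 6 prostate markers, 4 were under 1 TPM in every library of both models. The summed level of 7 colon markers was 0.858 to 3.72 TPM in MC38 and 5.62 to 9.42 TPM in RM9. Cdx2 was at 3.74 to 7.68 TPM in RM9 and listed at 0 in every MC38 library. Vil1 went the other way, at up to 0.0424 TPM in RM9 and 0.229 to 1.54 TPM in MC38. In tumor tissue, fewer cells of a type and less RNA per cell cannot be told apart. Whether libraries of both models were sequenced together is not given in the sources used here.

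Myc proteins dimerize with Max and bind the E-box, CACGTG, to raise transcription of genes for ribosome production, nucleotide synthesis and the cell cycle. The Mxd proteins also pair with Max and repress many of the same genes. Ras proteins switch between a GDP-bound and a GTP-bound state, and in the latter they start the Raf, MEK and ERK kinase cascade. ERK in turn induces genes such as those for the Sprouty proteins and the Dusp phosphatases, which dampen the cascade. Myc mRNA is short-lived and its level is commonly read as a sign of growth signalling.

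Myc was the main Myc family gene in both models. In RM9 control tumors its level was 264.5, 234.1, 332.1 and 267.6 TPM in the 4 mice, and in MC38 control tumors 91.6, 187.2, 173.8 and 103.1 TPM. All 4 RM9 values lay above all 4 MC38 values. The means were 275 ± 41.3 (SD, n = 4) and 139 ± 48.6 TPM (SD, n = 4), a ratio of 1.98 and a log2 difference of 1.04 (SE 0.24, limma adjusted p = 0.000299). On the other 3 scales the log2 difference of Myc was 1.47 to 1.71. Over all RM9 libraries Myc lay between 177 and 365 TPM, and over all MC38 libraries between 91.6 and 230 TPM.

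Mycn, which is normally used in embryonic and neural tissue, separated the models most. In RM9 control tumors Mycn was at 24.3, 27.0, 44.6 and 29.7 TPM, with a mean of 31.4 ± 9.07 (SD, n = 4). In MC38 control tumors it was listed at 0 in 3 mice and at 0.0474 TPM in the other. Of all 16 MC38 libraries, 12 listed Mycn at 0 and the highest value was 0.0905 TPM, whereas the lowest of the 15 RM9 values was 18.8 TPM. The log2 difference on the log2(TPM + 0.5) scale was 5.92 (SE 0.16, limma adjusted p = 1.05e-21). Its size depends on the constant added, being 8.12 with 0.1 and 4.96 with 1, because the MC38 values rest on few reads or none.

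Mycl showed the same order at a lower level. Its RM9 control values were 3.87, 3.99, 6.31 and 4.19 TPM (mean 4.59 ± 1.15, SD, n = 4). Its MC38 control values were 0.269, 0.0737, 0 and 0.144 TPM, and no MC38 library of any group reached 1 TPM. The log2 difference was 3.03 (SE 0.16, limma adjusted p = 7.18e-15) and depended in the same way on the constant added, between 2.30 and 4.53. As a share of the summed TPM of these 3 genes in RM9 control tumors, Myc made up 88.5% ± 1.51 (SD, n = 4), Mycn 9.99% ± 1.37 and Mycl 1.47% ± 0.14. In MC38 control tumors Myc made up 99.9% ± 0.15 (SD, n = 4).

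Hras was the highest of the Ras genes examined in RM9. Its control values were 355, 333.4, 670.2 and 411.8 TPM in RM9 and 49.2, 54.8, 54.6 and 53.3 TPM in MC38. No RM9 value was near the MC38 range, and the RM9 values spread much more among mice. The means were 443 ± 155 and 53.0 ± 2.56 TPM (SD, n = 4 each), a ratio of 8.36 and a log2 difference of 2.99 (SE 0.21, limma adjusted p = 1.85e-12). On the other 3 scales it was 3.43 to 3.66. Hras made up 90.2% ± 2.48 of the summed TPM of Hras, Nras and Rras2 in RM9 control tumors and 42.5% ± 2.20 in MC38 control tumors (SD, n = 4 each). These shares hold for TPM. From coverage Hras was still the highest of these genes in RM9 control tumors, at a mean of 192 RPM per kilobase beside 29.2 (Nras) and 17.9 (Rras2). In MC38 control tumors it was the lowest, at 16.4 beside 30.1 and 23.2.

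Nras and Rras2 did not share this pattern. Nras was at 27.2, 28.95, 31.9 and 32.4 TPM in RM9 control tumors and at 36.3, 51.3, 49.7 and 44.3 TPM in MC38 control tumors. Its log2 difference as deposited was −0.58 (SE 0.12, limma adjusted p = 0.000144), close to the median of all genes. It was −0.15 without the mitochondrial genes, 0.09 with median-ratio scaling and −0.04 from coverage, none of which was called. Rras2, an R-Ras type GTPase, was at 15.7, 15.9, 12.5 and 15.3 TPM in RM9 and 22.2, 28.7, 26.6 and 29.1 TPM in MC38 control tumors. Its log2 difference was −0.82 (SE 0.12, limma adjusted p = 1.45e-06), −0.40 and −0.37 without the mitochondrial genes and from coverage, and −0.17 with median-ratio scaling, where it was not called (adjusted p = 0.245).

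For Max and Mxd1, the partner and the repressor, the call also depended on the scale. Max was at 44.4, 43.6, 44.4 and 48.0 TPM in RM9 control tumors and at 38.4, 56.7, 62.3 and 55.5 TPM in MC38 control tumors. The log2 difference as deposited was −0.21 (SE 0.10, limma adjusted p = 0.0657). It was 0.21, 0.45 and 0.24 on the other 3 scales, where Max was called higher in RM9, and without MC38 control mouse 1 it was −0.36 as deposited and called lower (adjusted p = 0.000276). Mxd1 was at 3.34, 3.25, 4.05 and 2.76 TPM in RM9 and at 3.83, 6.07, 5.90 and 6.34 TPM in MC38 control tumors. Its log2 difference was −0.64 (SE 0.19, limma adjusted p = 0.0035) as deposited and −0.26, −0.03 and −0.22 on the other 3 scales, where it was not called.

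**Figure D1:**
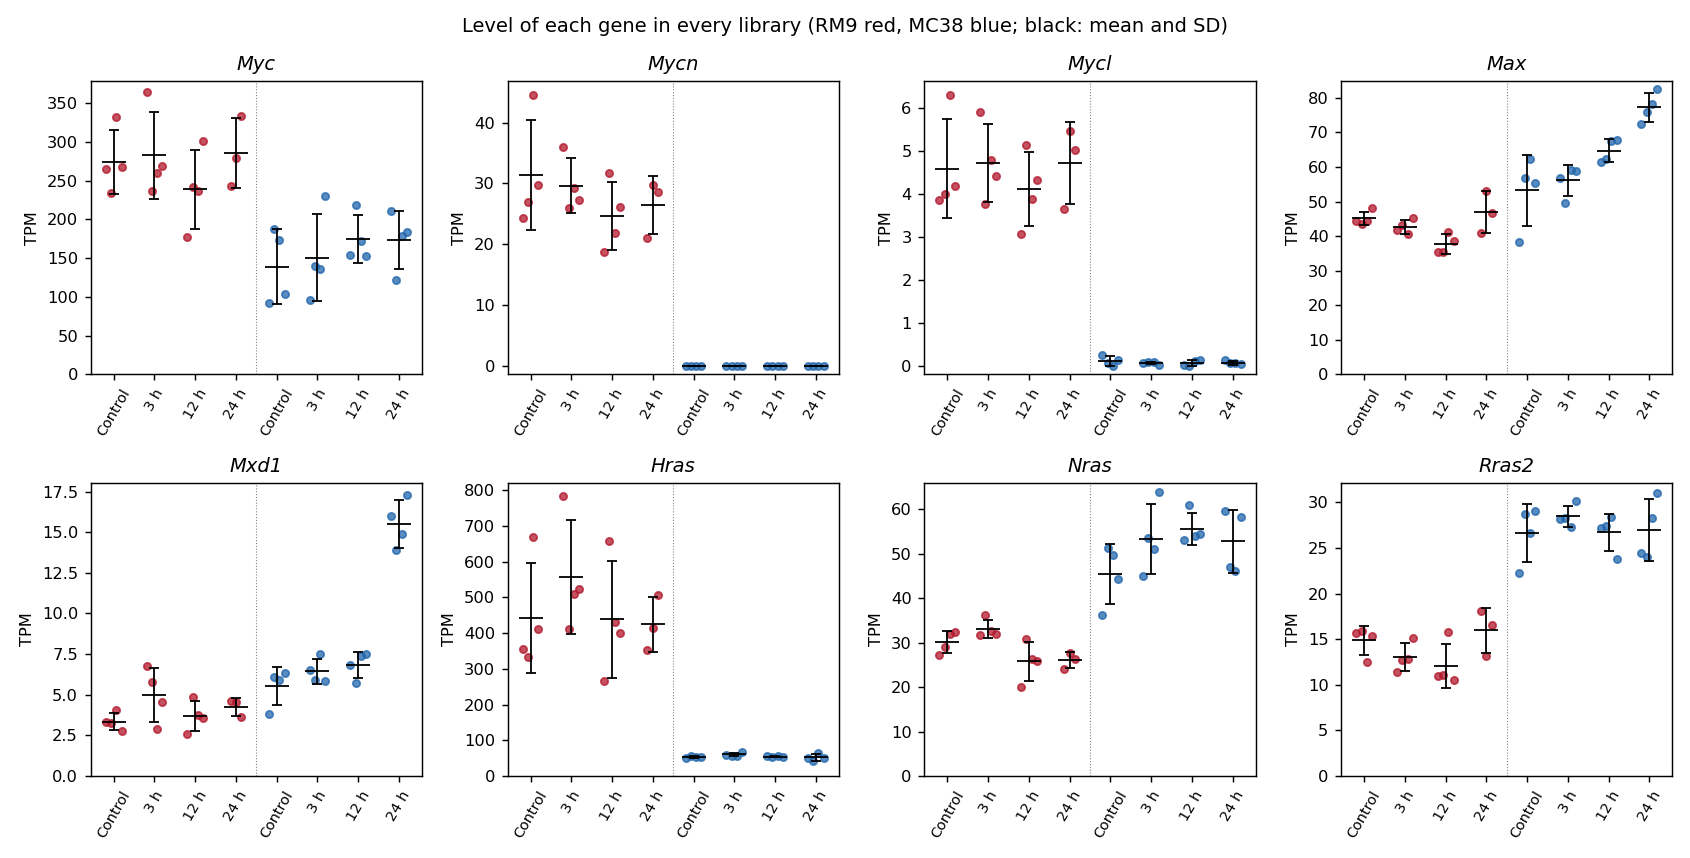
Each panel plots 1 gene, with TPM on a linear axis and 1 point per library for the control, 3 h, 12 h and 24 h groups of RM9 (red) and MC38 (blue). Black bars are group means with SD. Mycn, Mycl and Hras in RM9 lie far above MC38 in every group, and Mxd1 and Max in MC38 are highest at 24 h.

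In all, 4 of the 8 genes were called higher in RM9 control tumors and 3 lower, whereas 10.7% of the 15377 genes tested were called higher and 64.7% lower. The 8 were chosen because RM9 was made with ras and myc, and with earlier results known. Their shares beside those of all genes therefore describe the list and test nothing. All 8 passed the filter of a mean of 0.5 TPM in this comparison, Mycn and Mycl only through their RM9 values. In the fits of MC38 alone Mycn and Mycl were below it and were tested because they are members. Groups did not overlap for 4 genes in the higher direction (Myc, Mycn, Mycl and Hras), against 9.11% of all genes. They did not overlap for 2 genes in the lower direction (Nras and Rras2), against 50.8% of all genes. In the exact two-sided permutation test of mean TPM, these 6 genes each reached p = 0.0286, the smallest value that 70 assignments allow, and no gene passed after adjustment over the 56 tests of this family (adjusted p = 0.146). The order of the genes by mean TPM in RM9 control tumors was Hras, Myc, Max, Mycn, Nras, Rras2, Mycl and Mxd1. In MC38 control tumors it was Myc, Max, Hras, Nras, Rras2, Mxd1, Mycl and Mycn, where Max and Hras (53.2 ± 10.3 and 53.0 ± 2.56 TPM) lay within each other's spread. In RM9 control tumors Mycn and Nras (31.4 ± 9.07 and 30.1 ± 2.46 TPM) did so too. These orders hold for TPM and differ from coverage. There Myc stood above Hras in RM9 control tumors, at 219 ± 44.1 and 192 ± 64.9 RPM per kilobase (SD, n = 4 each). In MC38 control tumors Hras (16.4 ± 1.60) stood below Nras (30.1 ± 1.75) and Rras2 (23.2 ± 1.88, SD, n = 4 each).

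**Figure D2:**
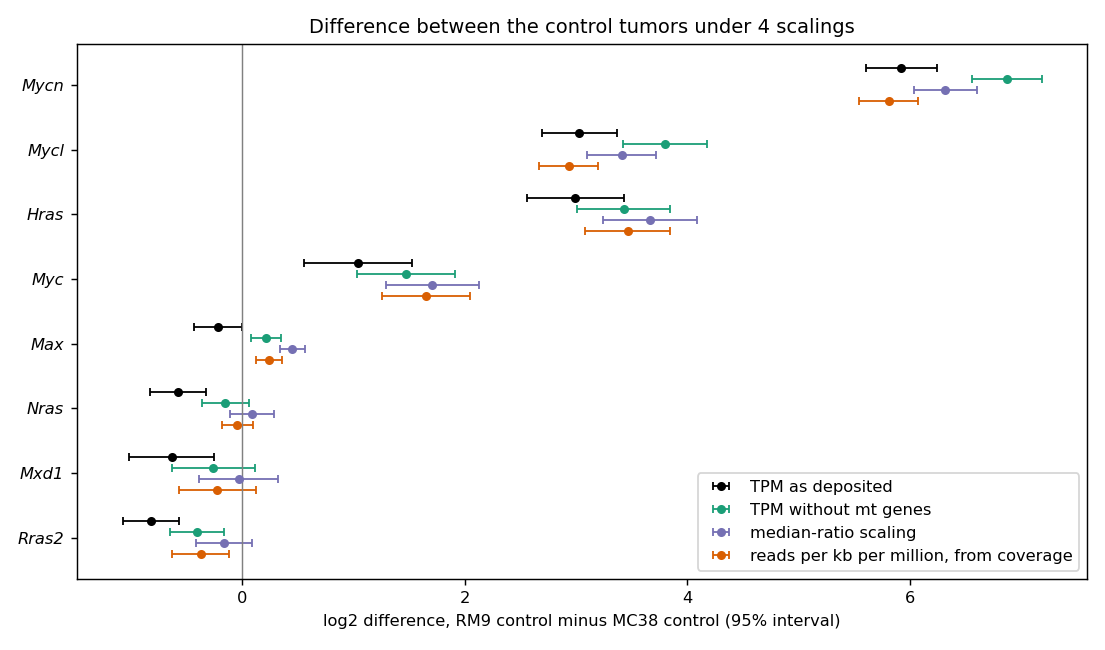
The horizontal axis is the log2 difference between RM9 and MC38 control tumors (n = 4 each) with its 95% interval, for each gene on 4 scales. Myc, Hras, Mycl and Mycn lie to the right of 0 on every scale, whereas Max changes side, from −0.21 as deposited to 0.45 with median-ratio scaling.

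The tables hold 1 value per gene and do not separate reads of introduced ras or myc copies from those of the mouse genes, so their part in the RM9 levels was not tested. No 75-base stretch of any transcript of the 8 genes occurs in a transcript of another gene in GENCODE M21, so reads of this length that match exactly belong to 1 gene. The ratio of deposited FPKM to that implied by coverage was 2.60 to 2.90 for Hras in RM9 and 2.58 to 2.95 in MC38, and 1.29 to 1.88 and 1.55 to 1.82 for Myc. For Nras it was 1.20 to 1.43 in RM9 and 1.24 to 1.51 in MC38, and in RM9 it was 1.31 for Mycn and 1.38 to 1.47 for Mycl. It was about 1 for Max, Mxd1 and Rras2. TPM of Hras, Myc, Nras, Mycn and Mycl thus depends on how reads were assigned to transcript forms. On coverage alone the control means were 192 ± 64.9 against 16.4 ± 1.60 RPM per kilobase for Hras (SD, n = 4 each). For Myc they were 219 ± 44.1 against 69.7 ± 13.95 (SD, n = 4 each).

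On GRCm38, the build that the coordinates in the tables follow, Mycn lies on chromosome 12 at 12936096 to 12941914 and Hras on chromosome 7 at 141189105 to 141194005, both on the minus strand. Mycl lies on chromosome 4 at 122995652 to 123002485 and Myc on chromosome 15 at 61985341 to 61990374, both on the plus strand. Genes near them were called at shares to be read beside the 10.7% of all genes called higher in RM9 control tumors and the 64.7% called lower. Of the 3 tested genes within 500 kb of Mycn, none was called higher in RM9 and 2 were called lower, and Ddx1, an RNA helicase gene, was at 58.2 and 65.3 TPM. Within 500 kb of Hras, 4 of 42 genes were called higher and 26 lower, with a median log2 difference of −0.55, and Lrrc56, which lies 0.152 kb away, was at 0.50 TPM in RM9 and 1.52 TPM in MC38. Of 10 genes near Mycl none was called higher and 8 were called lower. Beside Myc, the noncoding RNA gene Pvt1 was the single gene tested and was called higher in RM9 (10.5 against 7.26 TPM, log2 difference 0.53, limma adjusted p = 0.00895).

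The sequence before the RefSeq transcription start is shown for Mycn, Mycl and Hras, the genes that separated the models most, with transcribed bases of GENCODE M21 left out. The build is GRCm38.p6, the strand is that of the gene, and capitals mark the GC box GGGCGG or its complement CCGCCC.
Mycn, chr12:12941915-12942086, minus strand: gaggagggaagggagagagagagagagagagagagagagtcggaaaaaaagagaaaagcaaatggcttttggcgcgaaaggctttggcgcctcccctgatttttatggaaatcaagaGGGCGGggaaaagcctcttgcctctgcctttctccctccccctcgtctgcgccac
Mycl, chr4:122995812-122995930, plus strand: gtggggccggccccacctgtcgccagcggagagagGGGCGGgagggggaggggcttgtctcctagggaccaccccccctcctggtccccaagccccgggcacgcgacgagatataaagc
Hras, chr7:141194006-141194156, minus strand: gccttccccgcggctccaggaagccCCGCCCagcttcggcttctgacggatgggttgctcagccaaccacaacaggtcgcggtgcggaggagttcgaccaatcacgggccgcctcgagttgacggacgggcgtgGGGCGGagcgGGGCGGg
The Mycl stretch lies in an intron by GENCODE M21, which places an earlier start upstream. None of these stretches holds the E-box CACGTG. Over promoters from 250 bases before to 50 after the start, 7 of the 8 genes (all but Myc) matched the RefSeq table. A GC box stood in 6 of these 7 and in 35.7% of all 32851 promoters, and an E-box stood in 2 of the 7, those of Nras and Max, and in 7.15% of all promoters. The median share of G and C was 64% in the 7 promoters and 52.7% in all promoters, and the motif shares were not adjusted for this. Both strands were searched, and matches may overlap. Such a match describes the letters in this window and not a binding site in use.

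The counts for genes known as direct Myc targets depended on the scale. Of 30 such genes, 1 was called higher in RM9 control tumors and 24 lower as deposited, with a median log2 difference of −0.61 beside −0.63 over all genes. With median-ratio scaling 10 were called higher and 5 lower (median 0.06), and from coverage 4 higher and 11 lower (median −0.08). The medians over all genes on these scales were −0.03 and −0.19. Tfrc, the transferrin receptor, was at 22.6 TPM in RM9 and 206 TPM in MC38 (log2 difference −3.15, SE 0.26, limma adjusted p = 2.71e-11). Npm1, which encodes nucleophosmin, was at 1009 and 2242 TPM (−1.14, SE 0.12, adjusted p = 3.46e-09). The promoters of 31.03% of the 29 listed RefSeq starts of these targets held an E-box. A site is shown for Nras and for each of 4 targets with CACGTG, in capitals, before their start.
Nras, chr3:103058255-103058284, plus strand: ctctagtcgtcggccCACGTGgctggggcg
Cdk4, chr10:127063425-127063454, plus strand: atagcaacaggtCACGTGgccgtcagggcc
Ldha, chr7:46845744-46845773, plus strand: cggcccagcctaCACGTGggttcccgcacg
Nme1, chr11:93968273-93968302, minus strand: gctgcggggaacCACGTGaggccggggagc
Hspd1, chr1:55088306-55088335, minus strand: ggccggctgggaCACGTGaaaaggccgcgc
Of these targets, Cdk4, a cell cycle kinase, was the gene called higher in RM9 (352 against 273 TPM, log2 difference 0.38, limma adjusted p = 0.00364). Ldha, the lactate dehydrogenase gene, was at 847 and 1309 TPM, the nucleoside diphosphate kinase gene Nme1 at 125 and 197 TPM, and the chaperonin gene Hspd1 at 351 and 478 TPM, all called lower in RM9 as deposited.

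Among 14 other genes of the Max network, 2 were called higher in RM9 control tumors and 7 lower as deposited, against 10.7% and 64.7% of all genes. With median-ratio scaling, where the median over all genes was −0.03, 6 were called higher and 4 lower. The repressor genes differed in both directions. Mxi1 was at 20.0 TPM in RM9 and 7.94 TPM in MC38 (log2 difference 1.30, SE 0.18, limma adjusted p = 5.15e-07), and Mxd3 was at 8.09 and 31.4 TPM (−1.93, SE 0.19, adjusted p = 1.44e-09). Mlx, a Max-like partner, was at 14.9 and 36.2 TPM (−1.24, SE 0.14, adjusted p = 1.51e-08).

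Of 17 genes that ERK signalling induces, 11 were called higher in RM9 control tumors and 2 lower as deposited, against 10.7% and 64.7% of all genes, with a median log2 difference of 0.92 beside −0.63 over all genes. On each of the other 3 scales 15 were called higher and 1 lower. The median over all genes was then −0.25 without the mitochondrial genes, −0.03 with median-ratio scaling and −0.19 from coverage. Spry1 and Spry4, which encode Sprouty inhibitors of Ras signalling, were at 10.6 against 1.82 TPM (log2 difference 2.27, SE 0.22, limma adjusted p = 5.88e-10) and at 14.3 against 2.66 TPM (2.26, SE 0.20, adjusted p = 2.06e-10). Dusp5, an ERK phosphatase, was at 24.0 against 5.91 TPM (1.904, SE 0.15, adjusted p = 6.75e-12). The 2 called lower were the immediate early gene Fos and Ier3.

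The counts for the cascade itself, its regulators and other Ras-like GTPases are as deposited and stand beside the same 10.7% of all genes called higher and 64.7% called lower. Of 13 genes of the Raf, MEK and ERK cascade and other Ras effectors, 2 were called higher in RM9 control tumors and 6 lower. Ralgds, which activates Ral GTPases, was at 33.1 against 7.72 TPM (log2 difference 2.04, SE 0.15, limma adjusted p = 4.64e-12), and Ksr1, a scaffold of the cascade, at 1.25 against 5.86 TPM (−1.88, SE 0.15, adjusted p = 2.56e-11). Of 20 exchange factors, adaptors and GTPase-activating proteins for Ras, 1 was called higher and 13 lower. The lowest relative to MC38 was Dab2ip, a Ras GTPase-activating protein gene, at 2.64 against 12.8 TPM (−2.07, SE 0.19, adjusted p = 1.78e-10). Of 11 other Ras-like GTPase genes, 5 were called higher and 4 lower. Rap1b stood far above the rest, at 1552 TPM in RM9 and 140 TPM in MC38 (3.47, SE 0.17, adjusted p = 3.87e-16), a level above that of Hras in RM9. With median-ratio scaling the counts higher and lower were 7 and 5 for the cascade, 4 and 6 for the regulators and 6 and 0 for the relatives. The median over all genes on that scale was −0.03, and the shares above do not apply to it.

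After RT, no gene of the 8 was called in RM9 at any time. The shares called among all 14033 genes were 0.235% at 3 h, 8.48% at 12 h and 0% at 24 h, where 691 genes had an unadjusted p under 0.05 and none of the 8 did. Dunnett's test on TPM, run as an alternative, called Max at 12 h and none of the 8 at the other times. Myc in RM9 was at 365, 236.9, 260.2 and 269.5 TPM at 3 h, at 176.7, 241.3, 236.5 and 300.7 TPM at 12 h and at 243.3, 279.9 and 334.1 TPM at 24 h. Each of these groups overlapped the control tumors. Its log2 differences were 0.04 (95% interval −0.32 to 0.39), −0.21 (−0.57 to 0.14) and 0.06 (−0.33 to 0.44).

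Hras in RM9 was at 784.3, 410.8, 510.6 and 524.8 TPM at 3 h, at 264.8, 658.4, 430.2 and 401.6 TPM at 12 h and at 353.7, 414.7 and 506.2 TPM at 24 h. The spread among mice of 1 group was as wide as that between times, and the log2 difference at 3 h was 0.35 (SE 0.27, limma adjusted p = 0.441). Mycn lay between 18.8 and 36.0 TPM after RT, with log2 differences of −0.05, −0.33 and −0.22 in time order. Mycl lay between 3.08 and 5.91 TPM after RT, with log2 differences of 0.05, −0.14 and 0.04.

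Max was the gene that came nearest to a call in RM9. At 12 h it was at 35.3, 35.4, 41.3 and 38.7 TPM, all below the 4 control values, with a log2 difference of −0.26 (SE 0.08, limma adjusted p = 0.0631). Of all genes, 19.4% lay below control without overlap at 12 h, and the median of all genes was −0.19. With median-ratio scaling the Max difference was not called and shrank to −0.04. Mxd1 in RM9 was at 6.76, 5.76, 2.89 and 4.56 TPM at 3 h (log2 difference 0.47, SE 0.21, adjusted p = 0.220), so 1 of the 4 mice lay within the control range. Nras lay between 20.0 and 36.1 TPM and Rras2 between 10.6 and 18.1 TPM over the irradiated RM9 tumors, with no call.

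In MC38 tumors, no gene of the 8 was called at 3 h or 12 h after RT, against 0.07% and 31% of the 15723 genes tested, and 2 of the 8 were called at 24 h, both higher, against 13.2% of all genes called higher. These were Mxd1 and Max. Mxd1 was at 3.83, 6.07, 5.90 and 6.34 TPM in the control tumors, at 6.54, 5.91, 7.49 and 5.82 TPM at 3 h, at 6.81, 5.75, 7.36 and 7.52 TPM at 12 h and at 16.02, 13.9, 14.9 and 17.3 TPM at 24 h. The lowest 24 h value, 13.9 TPM, lay far above the highest control value, 6.34 TPM. The log2 difference at 24 h was 1.43 (SE 0.15, limma adjusted p = 0.00022), from a mean of 5.54 ± 1.15 to 15.5 ± 1.48 TPM (SD, n = 4 each).

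Max in MC38 was at 72.4, 75.9, 78.1 and 82.5 TPM at 24 h, all above the control tumors, as for Mxd1, and as 14.8% of all genes were. The means were 53.2 ± 10.3 TPM in control and 77.2 ± 4.23 TPM at 24 h (SD, n = 4 each), a log2 difference of 0.55 (SE 0.12, limma adjusted p = 0.00991). At 3 h and 12 h Max was at 56.1 ± 4.42 and 64.7 ± 3.35 TPM (SD, n = 4 each), and the 12 h difference of 0.30 was not called (adjusted p = 0.0696). On the other 3 scales the 24 h differences were 1.18 to 1.35 for Mxd1 and 0.29 to 0.45 for Max, each called. In the exact two-sided permutation test both reached p = 0.0286 at 24 h, the smallest value possible. With only the control and 24 h groups in the fit, Mxd1 was called and Max was not (adjusted p = 0.0991). Mouse 1 of the MC38 control group, which had the largest share of mitochondrial genes, 40.6% of TPM, had the lowest control value of both genes. In this mouse mt-Nd4l alone took 29.6% of TPM. Without this mouse the differences were 1.28 for Mxd1 (adjusted p = 0.000247) and 0.41 for Max (adjusted p = 0.00684).

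Levels of other cell types were read in the same tumors. The summed level of 8 neutrophil markers was 12.0 to 26.4 TPM in MC38 control tumors and 21.5 to 38.0 TPM at 24 h, with 3 of the 8 under 1 TPM in every library of either group. The sum of 8 macrophage markers was 880.5 to 1395 TPM in control and 700.3 to 878.8 TPM at 24 h, where Csf1r was called lower (13.1 against 24.7 TPM, limma adjusted p = 0.0212) and the other 7 were not called. Of these, Cd68 was at 112 against 82.8 TPM, without overlap (adjusted p = 0.105), and C1qa at 216 against 326 TPM. The sum of 7 T cell markers was 27.8 to 38.6 TPM in control and 14.2 to 25.2 TPM at 24 h, with 4 of the 7 called lower. That of 6 endothelial markers was 45.3 to 59.98 and 61.1 to 80.8 TPM. The summed level of 8 skeletal muscle markers reached 11910 TPM in 1 control tumor. Their part in the Mxd1 and Max results was not tested.

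The 248 bases before the Mxd1 start, with GC boxes in capitals as above, are shown because Mxd1 changed most after RT.
Mxd1, chr6:86669162-86669409, minus strand: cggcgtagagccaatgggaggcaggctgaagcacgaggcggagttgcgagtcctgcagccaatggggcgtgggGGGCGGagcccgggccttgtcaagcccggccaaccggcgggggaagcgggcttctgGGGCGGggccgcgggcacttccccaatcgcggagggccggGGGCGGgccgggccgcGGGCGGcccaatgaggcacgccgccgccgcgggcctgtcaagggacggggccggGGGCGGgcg
This stretch was 78.2% G and C, held 5 GC boxes, and no E-box.

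The other genes were not called in MC38 after RT. Myc was at 96.6, 140.4, 135.7 and 230 TPM at 3 h, at 153.7, 219.2, 172.2 and 152.4 TPM at 12 h and at 210.8, 121.2, 178.7 and 183.4 TPM at 24 h. These values overlapped the control tumors at every time. The log2 differences of Myc were 0.12, 0.38 and 0.36 (SE 0.27 each), and the 95% interval at 24 h ran from −0.21 to 0.93. Hras lay above the control range at 3 h (56.6 to 67.9 TPM), as 7.19% of all genes did, with a log2 difference of 0.18 (limma adjusted p = 0.346) that was −0.03 with median-ratio scaling. Nras lay above the control range at 12 h (53.1 to 61.0 TPM), as 34.5% of all genes did, with a log2 difference of 0.30 (adjusted p = 0.0847) that was −0.05 with median-ratio scaling. Rras2 lay between 23.8 and 31.1 TPM after RT. Its difference at 12 h was 0.01 as deposited and −0.34 with median-ratio scaling, where it was called lower (adjusted p = 0.0324). Mycn and Mycl stayed at or under 0.142 TPM in every irradiated MC38 tumor, too low for a change to be detectable.

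**Figure D3:**
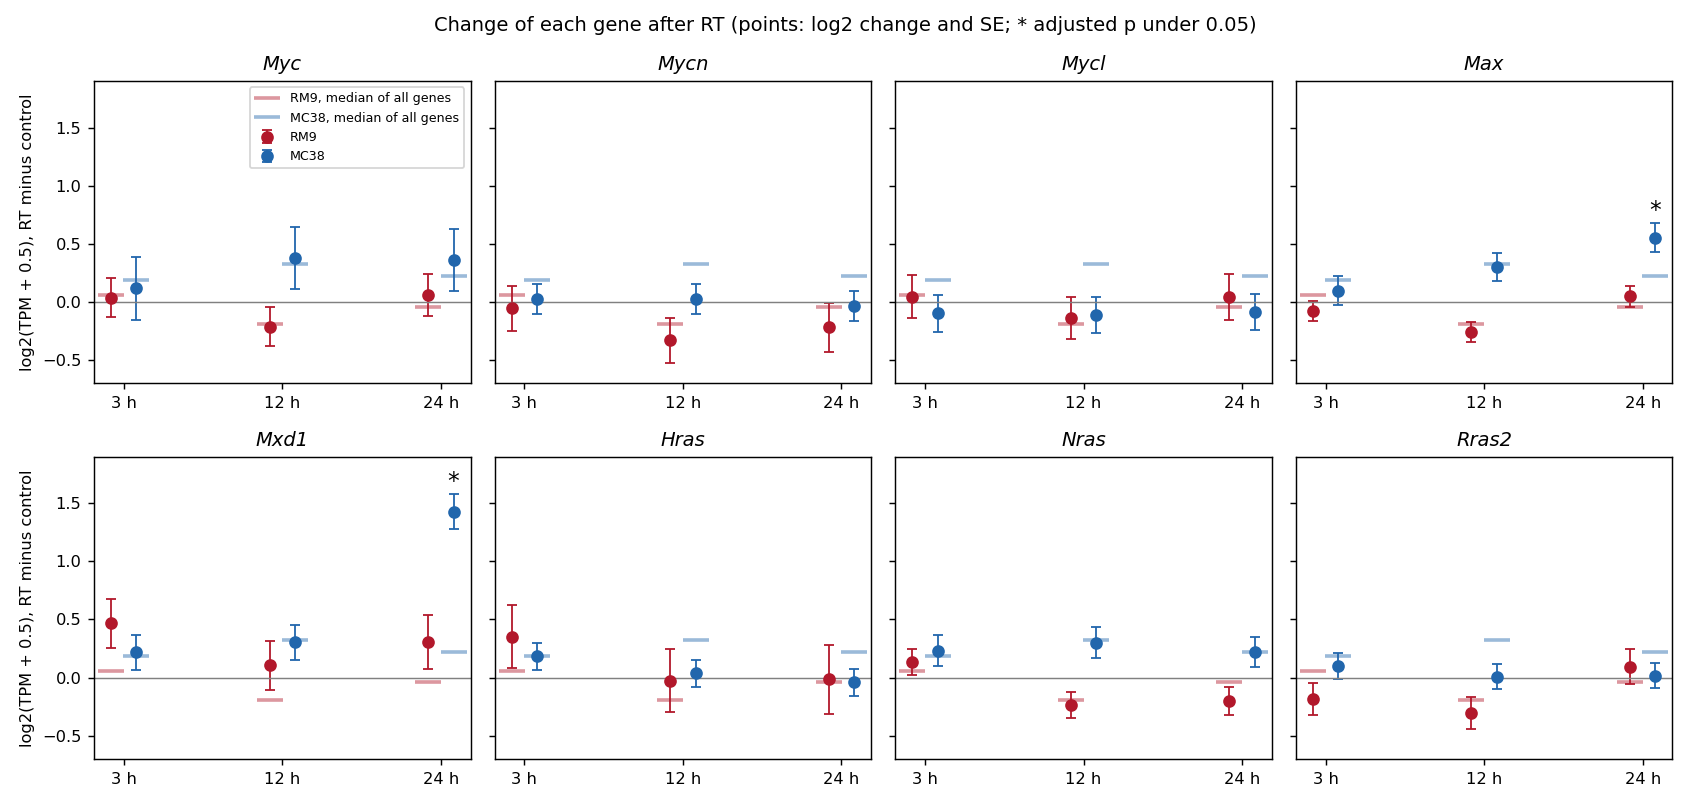
Points are log2 differences between RT and control groups, by time, in RM9 (red) and MC38 (blue), with SE, and the pale dashes are the median of all genes in the same comparison. Asterisks mark adjusted p under 0.05. Mxd1 (1.43) and Max (0.55) at 24 h in MC38 are the marked points.

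The difference in response between the models was tested directly. At 3 h none of the 8 differed, nor did any of the 15377 genes (0%), with 1547 genes but none of the 8 at an unadjusted p under 0.05. At 12 h the response of Max was 0.56 higher in MC38 than in RM9 on the log2 scale (SE 0.15, limma adjusted p = 0.00639) and that of Nras 0.53 higher (SE 0.17, adjusted p = 0.0173), while 45.6% of all genes were called and their median was 0.50. With median-ratio scaling these differences were 0.03 for Max and 0.0045 for Nras, neither called. Without the mitochondrial genes Max was called (0.28, adjusted p = 0.0459) and Nras was not. Without RM9 RT 12 h mouse 1, or without MC38 control mouse 1, Nras was not called (adjusted p = 0.0512 and 0.0525). At 24 h the response of Mxd1 was 1.12 higher in MC38 (SE 0.28, adjusted p = 0.0341), against 2.06% of all genes called. This call was near the threshold, with an adjusted p of 0.0813 with median-ratio scaling, 0.076 from coverage and 0.0455 without the mitochondrial genes. It was also lost without RM9 control mouse 1, 2 or 3, RM9 RT 24 h mouse 1 or 3, MC38 control mouse 1 or MC38 RT 24 h mouse 4 (adjusted p 0.0525 to 0.0863). The Mxd1 difference itself was 0.84 to 1.16 over the alternatives that kept every mouse and 0.97 to 1.20 with each mouse left out in turn. The Max response at 24 h differed by 0.51 (SE 0.15, adjusted p = 0.0709), and was called without the mitochondrial genes (0.37, adjusted p = 0.0434).

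Many Myc targets were called lower in RM9 at 12 h on the deposited scale. Of 30, 18 were called lower and none higher, against 8.41% of all genes called lower, with a median log2 difference of −0.41 beside −0.19 over all genes. Rrp12, a ribosome assembly gene, was at 5.81 TPM against 9.16 TPM in control (−0.61, SE 0.13, limma adjusted p = 0.0259), nucleolin (Ncl) at 173 against 255 TPM (−0.55, SE 0.13, adjusted p = 0.0301) and fibrillarin (Fbl) at 74.9 against 110 TPM (−0.54, SE 0.12, adjusted p = 0.0282). None of the 30 was called with median-ratio scaling (median −0.19 beside 0.01) or without the mitochondrial genes, and 2 were called lower from coverage. At 3 h and 24 h none was called in RM9 as deposited. Myc itself was not called at any of these times. Some cell type markers were also called lower in RM9 at 12 h as deposited. The summed level of 8 macrophage markers was 384.7 to 608.4 TPM in control and 191.5 to 382.3 TPM at 12 h, with 5 of the 8 called lower, and that of 7 T cell markers was 8.14 to 14.3 and 2.57 to 6.89 TPM, with 4 of the 7 called lower. The sum of 8 skeletal muscle markers was 245.4 to 2389 and 3.40 to 979.1 TPM, and none of them was called. That of 7 epithelial markers was 1155 to 1396 and 669.6 to 1137 TPM, with 1 of the 7 called lower. Their part in the counts of Myc targets was not tested. In MC38 7 of the 30 targets were called higher and 1 lower at 12 h, against 28.4% of all genes called higher, and 3 were called higher at 24 h, against 13.2%. With median-ratio scaling the counts were 1 higher and 6 lower at 12 h and 0 higher and 4 lower at 24 h.

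In MC38 after RT, some ERK-induced genes were called. At 3 h Fos was called higher, at 17.2 against 8.97 TPM (log2 difference 0.90, SE 0.15, limma adjusted p = 0.0352), as 1 of 17. At 12 h 7 of the 17 were called higher, against 28.4% of all genes, whereas with median-ratio scaling none was called higher and 1 lower, and at 24 h 6 were called higher against 13.2% of all genes. Egr1, an immediate early gene, was at 16.8 against 5.91 TPM at 24 h (1.33, SE 0.31, adjusted p = 0.0125), Dusp5 at 13.9 against 5.91 TPM (1.15, SE 0.15, adjusted p = 0.000426) and Dusp6 at 68.2 against 31 TPM (1.07, SE 0.26, adjusted p = 0.0155). With median-ratio scaling 2 of the 17 were called higher at 24 h and from coverage 4. In RM9 none of the 17 was called at any time. The response of Dusp5 at 24 h was 0.84 higher in MC38 than in RM9 (SE 0.21, adjusted p = 0.0375), whereas none of the 17 was called for this difference on the other 3 scales.

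In RM9 at 12 h 1 of the 14 Max network genes, Ruvbl1, and 2 of the 20 Ras regulators were called lower, against 8.41% of all genes, and none of the cascade genes or Ras relatives was called. In MC38 at 12 h 6 of 14 Max network genes, 8 of 20 regulators (and 1 lower), 5 of 13 cascade genes and 2 of 11 relatives were called higher, against 28.4% of all genes. At 24 h the counts called higher were 2, 1, 4 and 1 in the same order, against 13.2% of all genes. Ralgds at 24 h was at 13.7 against 7.72 TPM (0.80, SE 0.14, limma adjusted p = 0.00267) and Rap1b at 207 against 140 TPM (0.54, SE 0.17, adjusted p = 0.0495).

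**Figure D4:**
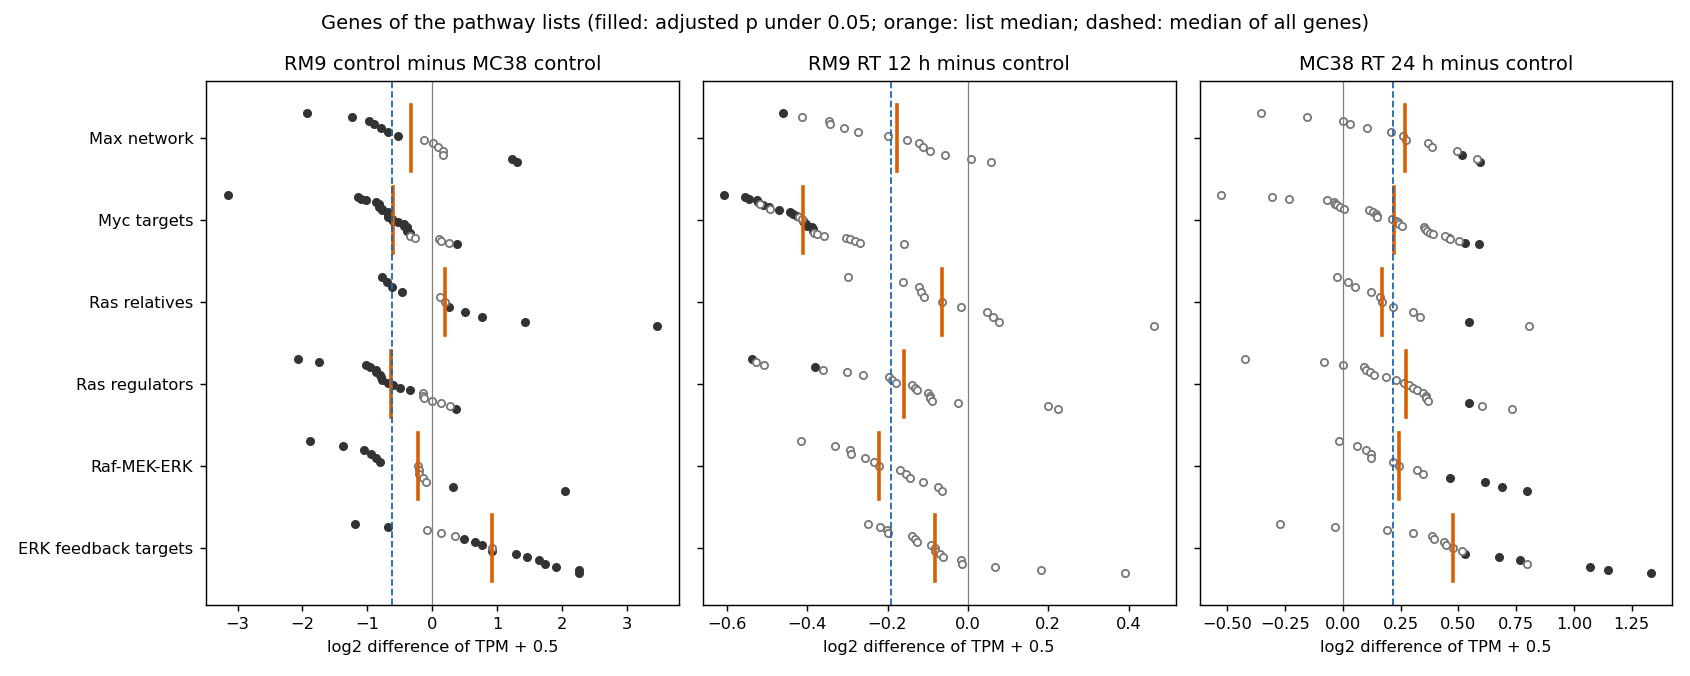
Each point is 1 gene of a list, placed by its log2 difference, filled where the adjusted p is under 0.05. Orange bars are list medians and the dashed line is the median of all genes, for RM9 against MC38 control tumors, RM9 at 12 h and MC38 at 24 h. The median of the ERK-induced genes lies right of the dashed line in the first panel (0.92 beside −0.63), with Fos and Ier3 left of it, and the median of the Myc targets lies left of it in the second (−0.41 beside −0.19).

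The genes most alike to each member were read from all 31 libraries, as Pearson's r of median-ratio-scaled log2 values centred within each model, among 10304 genes. Libraries share their scaling and tumor composition, and r is given as a description. Mycl was most like Mycn (r = 0.78) and was also like Hras (0.72), and Hras was among the 3 genes most like Mycn (0.68). Within RM9 alone these values were 0.89, 0.81 and 0.76, so RM9 tumors with a higher scaled Hras level tended to be those with higher Mycn and Mycl. Bmyc, a further Myc relative, had r = 0.98 with Mycn within RM9, and its level was alike in both models, at a median of 13.5 TPM in RM9 and 16.7 TPM in MC38. The transcript AA543401, with r = 0.89 to Mycn within RM9, was at 14.6 to 30.7 TPM in RM9 and listed at 0 in all 16 MC38 libraries. Slc9a2, a sodium-proton exchanger gene and the second most like Mycl, was at 14.4 to 30.1 TPM in RM9 and at most 0.678 TPM in MC38.

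Myc was most like Ipo4, an importin gene (r = 0.83), Max most like Chmp4b, an ESCRT-III subunit gene (0.91), and Mxd1 most like Csrnp1, a transcription factor gene (0.86). Within MC38 alone these values were 0.90, 0.94 and 0.93. Nras was most like Cnot2 (0.75) and Rras2 most like Gm10053 (0.80), whereas the gene most like Hras was Nfic (0.72).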

How the data were processed

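Poly(A) RNA libraries (stranded, single reads of 75 bases) from 31 tumors, 1 mouse each, were read from 1 gene table per library. The TPM, FPKM and coverage values in these tables were made by the authors, per the file headers, with TPM scaled within each library and coverage giving read depth averaged over a gene's bases. The deposited tables hold no counts, so no count model was used. The submitters' processing notes name bcl2fastq 2.17 and the build GRCm39, whereas the gene coordinates follow GRCm38: of 45137 gene identifiers shared with GENCODE M21, 91.07% had the same start or end. The aligner and the program that made the tables are not given in the sources used here. Of the 46072 genes, rows that repeat a gene identifier (9 to 23 repeated rows in a library) were summed. No pair of libraries held identical values.

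Groups followed the labels. log2(TPM + 0.5) was fitted with limma 3.58.1 (R 4.3.3; lmFit and eBayes with an intensity trend) over genes whose mean TPM reached 0.5, plus all 8 genes described. The comparison of control tumors and the differences between models came from 1 fit of 31 libraries in 8 groups (15377 genes), and RT against control from the fit of each model (14033 genes in RM9, 15723 in MC38). P-values were adjusted by Benjamini-Hochberg over all genes, with a threshold of 0.05. Fold changes are on the log2(TPM + 0.5) scale, which understates changes of low genes. An exact two-sided permutation test of mean TPM was run for each of the 8 genes (scipy 1.17.1). P-values measure the spread between mice. Fits were tested on simulated data. Each choice was also varied: a pseudocount of 0.1 or 1, scaling by median ratios, TPM without mitochondrially encoded genes, no filter or a mean TPM of 5, a replicate block, eBayes without trend, only the groups compared, Dunnett's test, and each mouse left out. Coverage scaled for depth, in place of TPM, was added after the data were seen.

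The 8 genes, the 6 pathway lists and the 9 marker lists were chosen with earlier results of these data known. The 8 genes were named in every comparison, and from each pathway list at most the 3 genes with the largest change among those past the threshold whose mean TPM reached 1. Genes alike in pattern were the 3 with the highest correlation among genes whose mean TPM reached 5. Neighbouring genes, marker genes, the targets shown with an E-box, and Fos and Ier3 between control tumors were named outside this rule or after their values were seen. Promoter sequences are from RefSeq (GRCm38.p6).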

Additional observations from a re-analysis of the deposited data

Results flagged for a closer look

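In 6 of 55 sets of 4 libraries (1 gene in 1 group), 1 mouse stood apart from the other 3, by Dixon's ratio of the gap to the nearest mouse to the whole range (95% level). Chance gives this in about 1 of 20 sets of normally distributed values. That rate does not apply to the Mycn sets named next, where the other mice were listed at 0 and the ratio is fixed. Among the low values of MC38, Mycn was at 0.0474 TPM in control mouse 1 and at 0.0905 TPM in RT 12 h mouse 3, where the other mice of the group were listed at 0, and Mycl was at 0.142 TPM in RT 24 h mouse 1. In RM9, Mycl was at 6.31 TPM in control mouse 3, the mouse that also had the highest control values of Myc, Mycn and Hras, and Rras2 was at 15.7 TPM in RT 12 h mouse 3. Nras was at 61.0 TPM in MC38 RT 12 h mouse 2.

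For 3 results the response to RT differed between the models by limma's test of the difference. At 12 h the log2 response was higher in MC38 by 0.53 for Nras and by 0.56 for Max, beside a median of 0.50 over all genes, and neither was called with median-ratio scaling. At 24 h it was higher in MC38 by 1.12 for Mxd1, beside a median of 0.25 over all genes. That call was lost with median-ratio scaling (limma adjusted p = 0.0813) and from coverage (adjusted p = 0.076), among other alternatives.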

How the results depend on the processing

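Of the values for the 8 genes under alternatives that kept every mouse, 725 of 800 kept their direction and their side of the threshold, 18 lost a call, 3 gained one and 54 changed sign. Of those that changed sign, Nras between control tumors was called in the deposited TPM and the rest were not. The higher levels of Myc, Mycn, Mycl and Hras in RM9 control tumors and the changes of Mxd1 at 24 h in MC38 kept their call under every alternative, including each mouse left out in turn. Max at 24 h in MC38 lost its call where the fit held the compared groups alone, and 1 of the 8 genes was called in place of 2. The number of genes called for the difference between models at 12 h was 2, and was 0 with median-ratio scaling, 1 without the mitochondrially encoded genes, 0 with coverage, and 1 to 3 with each mouse left out. At 24 h it was 1, and was 0 with a pseudocount of 0.1, with median-ratio scaling, with coverage and with only the groups compared, 2 without the mitochondrially encoded genes, and 0 to 2 with each mouse left out. Mxd1 lost that call when any of 7 mice was left out, with adjusted p from 0.0525 to 0.0863, and Max gained one without RM9 RT 24 h mouse 2 or MC38 control mouse 3. At 12 h Rras2 gained one without RM9 RT 12 h mouse 3 (0.44, adjusted p = 0.0322). In RM9 at 12 h the number was 0, and was 1 (Max) with a filter at a mean TPM of 5 and with Dunnett's test, whose p is not adjusted over genes. In MC38 at 12 h it was 0, and was 1 (Rras2, lower) with median-ratio scaling and with coverage, and 0 to 1 with each mouse left out, where Max was called without MC38 control mouse 3 (0.38, adjusted p = 0.0234). The cause of these differences was not tested.

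With median-ratio scaling, the log2 differences of reversed sign were Nras 0.087 and Max 0.45 for RM9 against MC38 control tumors, and Myc −0.048 and Nras −0.034 for the difference between models at 3 h. They were also Mxd1 −0.29, Hras −0.47, Mycl −0.22 and Rras2 −0.21 for the difference between models at 12 h, and Myc −0.035 and Mycl −0.016 for RM9 at 3 h. Others were Myc 0.0054, Hras 0.19 and Mycl 0.059 for RM9 at 12 h, and Hras 0.032 for RM9 at 24 h. Further values were Myc −0.10, Hras −0.034, Rras2 −0.11 and Max −0.12 for MC38 at 3 h, and Mxd1 −0.019, Hras −0.31, Nras −0.046, Rras2 −0.34 and Max −0.046 for MC38 at 12 h. The last were Nras −0.044 and Rras2 −0.24 for MC38 at 24 h. Without the mitochondrially encoded genes, the log2 differences of reversed sign were Max 0.21 for RM9 against MC38 control tumors, and Myc −0.0048 for the difference between models at 3 h. They were also Mxd1 −0.067, Hras −0.22 and Mycl −0.18 for the difference between models at 12 h, and Hras 0.12 for RM9 at 12 h. Others were Hras 0.017 for RM9 at 24 h, and Hras −0.10 and Rras2 −0.13 for MC38 at 12 h. Further values were Rras2 −0.089 for MC38 at 24 h. With depth-scaled coverage in place of TPM, the log2 differences of reversed sign were Max 0.24 for RM9 against MC38 control tumors, and Mxd1 −0.24, Hras −0.41, Mycl −0.14 and Rras2 −0.15 for the difference between models at 12 h. They were also Myc −0.16 and Mycl −0.026 for RM9 at 3 h, and Hras 0.15 and Mycl 0.038 for RM9 at 12 h. Others were Myc −0.0097 and Hras 0.034 for RM9 at 24 h, and Myc −0.057, Rras2 −0.051 and Max −0.056 for MC38 at 3 h. Further values were Hras −0.26 and Rras2 −0.27 for MC38 at 12 h, and Nras −0.11 and Rras2 −0.21 for MC38 at 24 h. With a pseudocount of 0.1, the log2 differences of reversed sign were Mycl −0.16 for the difference between models at 12 h.

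When each mouse was left out in turn, the log2 differences that changed sign ran over Myc −0.15 to 0.27, Hras −0.39 to 0.0089, Nras −0.0073 to 0.17 and Mycn −0.10 to 0.19 for the difference between models at 3 h. They ran over Hras −0.15 to 0.29 and Mycl −0.12 to 0.13 for the difference between models at 12 h. They ran over Hras −0.24 to 0.11 and Rras2 −0.20 to 0.016 for the difference between models at 24 h. They ran over Myc −0.094 to 0.13, Mycl −0.058 to 0.19 and Mycn −0.16 to 0.13 for RM9 at 3 h. They ran over Mxd1 −0.022 to 0.24, Hras −0.25 to 0.19 and Mycl −0.24 to 0.011 for RM9 at 12 h. They ran over Myc −0.062 to 0.17, Hras −0.15 to 0.20, Mycl −0.064 to 0.20 and Max −0.046 to 0.14 for RM9 at 24 h. They ran over Myc −0.11 to 0.30, Mycl −0.20 to 0.0100 and Max −0.053 to 0.18 for MC38 at 3 h. They ran over Mycn −0.033 to 0.060 and Rras2 −0.075 to 0.063 for MC38 at 12 h. They ran over Hras −0.15 to 0.065, Mycl −0.19 to 0.020 and Rras2 −0.067 to 0.068 for MC38 at 24 h.

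The mouse numbers of the labels did not pair the libraries. Deviations from the group means had a median correlation of −0.06 over 21 same-numbered pairs in RM9, of which 5 were over 0.1, and −0.07 over 24 pairs in MC38, of which 7 were. With the mouse number as a replicate block, the number of the 8 genes called was 0 in place of 1 for the difference between models at 24 h (Mxd1, adjusted p = 0.0504) and 1 in place of 0 in MC38 at 12 h (Max, adjusted p = 0.0484). The block also ended the call of Mxd1 between control tumors (adjusted p = 0.0937).

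Counts over all genes moved by more than 1.5 times in several comparisons. In RM9 at 12 h, 1190 genes were called, against 17 with median-ratio scaling, 79 without the mitochondrially encoded genes, 105 with coverage, 580 with no filter and 1 with only the groups compared. In MC38 at 12 h, 4880 genes were called, against 2550 with median-ratio scaling, 2963 with no filter, 2822 with coverage and 2 with only the groups compared, and at 24 h 2172 against 298 with only the groups compared. For the difference between models at 12 h, 7011 were called, against 440 with median-ratio scaling, 2332 without the mitochondrially encoded genes and 689 with coverage, and at 24 h 317 against 196 with a pseudocount of 0.1, 168 with the replicate block and 39 with only the groups compared. At 3 h the difference between models gave 0 to 11. In RM9 at 3 h 33 were called, against 0 to 458 under the alternatives, in MC38 at 3 h 11 against 1 to 239, and in RM9 at 24 h 0 against 2 with no filter. Depth limits Mycn and Mycl in MC38, where 1 TPM stood for 16.5 to 25.9 reads per kilobase.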
